A study of Caenorhabditis elegans with 20 samples.

Results

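The genes described here are 10 regulators of germline stem cells and of the entry into meiosis in the nematode Caenorhabditis elegans, chosen by name: glp-1 (F02A9.6), gld-1 (T23G11.3), gld-2 (ZC308.1), gld-3 (T07F8.3), fbf-1 (H12I13.4), fbf-2 (F21H12.5), nos-3 (Y53C12B.3), daz-1 (F56D1.7), puf-8 (C30G12.7) and mex-3 (F53G12.5), with the sequence names of the table in brackets. Of these, 9 were among the 15568 genes of the deposited table, and all 9 had a mean of at least 1 RPKM (reads scaled by gene length and by library size) over the 6 libraries, the minimum for testing. mex-3, which encodes a KH domain RNA-binding protein, is on the study's list of genes that oscillate during larval development, which the study excluded, and it was not analysed here.

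The series asked how the DREAM complex, a repressor of transcription that contains the Rb-like protein LIN-35, and the histone variant H2A.Z (HTZ-1 in the worm) act on gene expression. RNA was measured in whole larvae of the third stage (L3), described as a mixed population of males and hermaphrodites. There were 2 libraries each of lin-35(n745) mutants (strain JA1507), of htz-1(ok3099) homozygotes (strain VC2490) and of the wild type N2. The series also holds ChIP-seq samples, which were not analysed here. The htz-1 homozygotes were the offspring of heterozygous mothers, so maternal product may have been present, and they were picked out with a worm sorter from a culture that also held larvae with the nT1[qIs51] balancer. No sorting is described for lin-35 or N2 larvae, so sorting and the htz-1 genotype cannot be told apart. The library names of lin-35 and N2 carry the same tag within each replicate number, those of htz-1 carry others, and the meaning of the tags is not stated. Whether the replicates are separate cultures is not stated, and p-values therefore measure a spread between libraries that may be technical.

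Germline stem cells of the worm lie at the distal end of the gonad, where a somatic niche cell presents Notch ligands to the receptor GLP-1. Signalling through GLP-1 keeps the cells in the mitotic cycle, with the help of the paired PUF proteins FBF-1 and FBF-2, which bind mRNAs and repress them. Farther from the niche, the translational repressor GLD-1 and its partner NOS-3, a Nanos protein, act in parallel with the cytoplasmic poly(A) polymerase GLD-2 and its KH protein partner GLD-3 to bring cells into meiosis. PUF-8 is another PUF protein of the proliferating germ cells, and DAZ-1, a relative of the human DAZ proteins, is an RNA-binding protein needed for oogenesis. In the third larval stage the gonad is growing and the first cells enter meiosis.

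The libraries were of similar depth, with 13604791 to 18301926 reads each and 73.9% to 77.2% of them in the listed genes. The lin-35 transcript stood at 12.8 and 13.3 RPKM in lin-35 larvae, 13.5 and 11.8 RPKM in htz-1 larvae and 12.1 and 11.1 RPKM in N2 larvae, so its level did not tell the lin-35 mutants apart. The htz-1 transcript stood at 65.6 and 27.8 RPKM in htz-1 larvae and 138 and 155 RPKM in lin-35 larvae, against 78.5 and 81.3 RPKM in N2 larvae. The 2 htz-1 libraries thus differed by more than a factor of 2 in the gene that is mutated in them, and replicate 1 was near the N2 level. The part of htz-1 that ok3099 removes is not given in the sources used here, and neither transcript can serve as a check of the labels. The calls of the regulators in htz-1 larvae are given with each htz-1 library left out.

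Germ cell RNA was present in every library. The 10 germ cell markers (pgl-1, glh-1 and others) summed to 831 and 904 RPKM in lin-35 larvae and 447 and 540 RPKM in htz-1 larvae, against 386 and 416 RPKM in N2 larvae. Apart from hrde-1, pgl-1 and glh-1, which were called higher in lin-35, the other 7 summed to 173 and 220 RPKM there, against 178 and 188 RPKM in N2. These 7 are those that did not pass in lin-35, so a sum near N2 follows from that choice. The sums are of RPKM as deposited. The defining oocyte and sperm markers were low: the oocyte list summed to between 12.6 and 21.2 RPKM with perm-2 at 0 in all 6 libraries, and the 9 sperm markers summed to between 3.76 and 7.59 RPKM. In whole larvae a change in the number of germ cells and a change in RNA per germ cell cannot be told apart.

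In N2 larvae the 9 regulators were moderately expressed. daz-1 had the highest mean, 22.3 ± 0.62 RPKM (SD, n = 2), which did not stand clear of nos-3 at 21.4 ± 0.87 RPKM. Below them came gld-2 at 19.3 ± 0.19, puf-8 at 16.4 ± 2.4 and gld-1 at 12.6 ± 1.0 RPKM, each clear of its neighbour in both libraries. fbf-1 at 8.74 ± 0.57 and glp-1 at 8.58 ± 0.58 RPKM overlapped, fbf-2 followed at 7.68 ± 0.68 RPKM, and gld-3 was lowest at 4.52 ± 0.19 RPKM. Against the N2 means of all 9679 genes tested these levels lay between the percentiles 24.8 for gld-3 and 68.2 for daz-1. Behind the values were 184 to 2572 reads per gene and library.

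The order was different in the mutants. In lin-35 larvae gld-2 was highest at 23.7 ± 0.45 RPKM, followed by glp-1 at 20.2 ± 0.20 RPKM, which had rank 7 in N2, while daz-1, the highest in N2, had rank 5 at 12.8 ± 2.9 RPKM. The means of glp-1, nos-3, puf-8, daz-1 and gld-1 followed each other there with overlapping libraries. In htz-1 larvae daz-1 was highest at 28.5 ± 1.1 RPKM, followed by gld-2 at 24.6 ± 1.1 RPKM and puf-8 at 22.1 ± 0.62 RPKM, each clear of the next. gld-3 was lowest in each of the 3 genotypes.

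**Figure D1:**
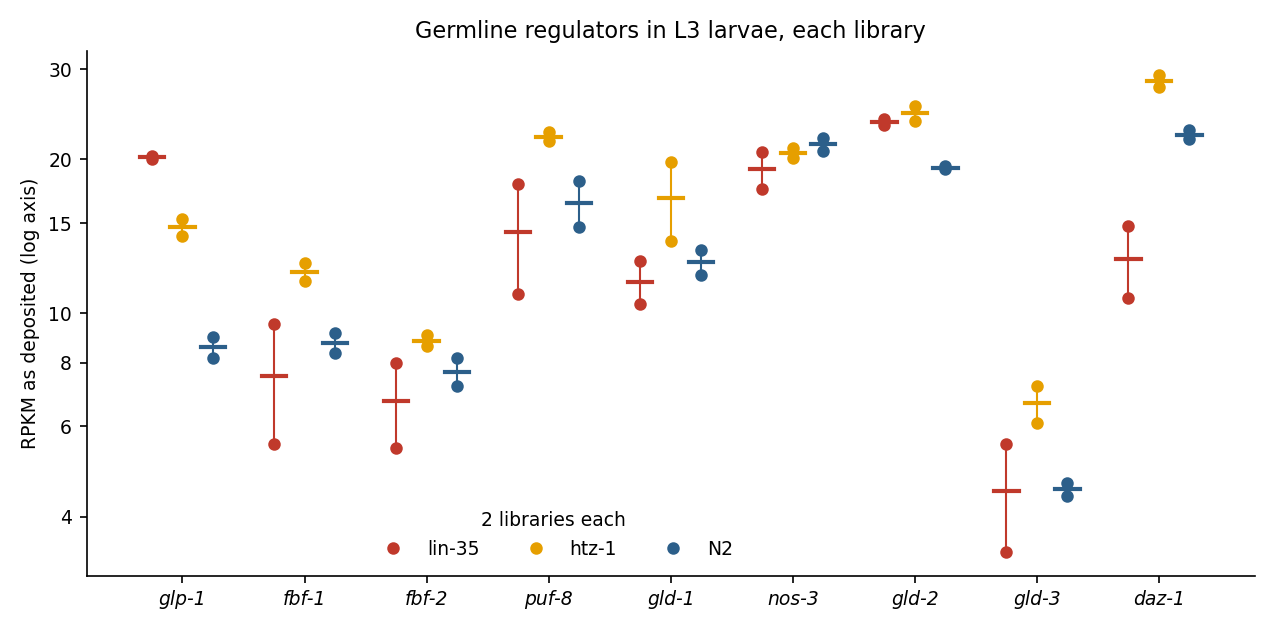
RPKM of the 9 regulators in each library (log axis), with lin-35, htz-1 and N2 from left to right for each gene; points are libraries, short bars are means and thin lines join the 2 libraries of a genotype. glp-1 lies between 20.1 and 20.3 RPKM in lin-35 larvae and between 8.17 and 8.99 RPKM in N2 larvae, and daz-1 in lin-35 larvae (10.7 and 14.8 RPKM) lies below its other libraries.

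Genotypes were compared with limma on log2(RPKM + 0.5) after scaling for library composition, with p-values adjusted over all 9679 genes and called under 0.05, and log2 fold changes are on that scale. Between lin-35 and N2 larvae, 1 of the 9 regulators was higher (glp-1), 1 was lower (daz-1) and 7 did not pass. Of all genes tested, 23.8% passed in this comparison, 12.1% higher and 11.6% lower, so the 22.2% of the regulators was close to the background. Their median log2 fold change was -0.34, with 2 positive and 7 negative values, beside a median of -0.01 over all genes tested. This median rested on lin-35 replicate 1: it was -0.0279 without that library and -0.54 without lin-35 replicate 2, and -0.16 on RPKM as deposited. As deposited, both lin-35 libraries were above both N2 libraries for 2 regulators (glp-1 and gld-2) and below them for 2 (daz-1 and nos-3), and 5 overlapped, where 47.6% of all genes tested were above and 17.9% below.

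glp-1, the Notch receptor of the germline stem cells, was the regulator that rose in both mutants. It had 20.1 and 20.3 RPKM in lin-35 larvae and 15.3 and 14.2 RPKM in htz-1 larvae, against 8.99 and 8.17 RPKM in N2 larvae. These came from 1291 and 1329 reads in lin-35, 1147 and 831 in htz-1 and 709 and 532 in N2. Every mutant library was above both N2 libraries. The mean of deposited RPKM in lin-35 was 2.35 times that in N2. After scaling the log2 fold change was 1.02 (SE 0.11, 95% interval 0.76 to 1.27, limma adjusted p = 0.000898). The mean of deposited RPKM in htz-1 was 1.72 times that in N2. After scaling the log2 fold change was 0.74 (SE 0.11, 95% interval 0.48 to 1.00, limma adjusted p = 0.00352). Both calls passed in each of the 16 alternatives, with adjusted p between 0.000267 and 0.0130 for lin-35 and between 0.00130 and 0.0347 for htz-1. Without htz-1 replicate 1 the htz-1 value was 0.72, and without replicate 2 it was 0.77. Both lin-35 libraries were above both htz-1 libraries, but the difference between the mutants, 0.28 (SE 0.11, 95% interval 0.02 to 0.53), did not pass after adjustment (limma adjusted p = 0.0973).

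daz-1, the oogenesis gene, went down in lin-35 larvae. It had 10.7 and 14.8 RPKM in lin-35 larvae and 27.7 and 29.3 RPKM in htz-1 larvae, against 22.8 and 21.9 RPKM in N2 larvae, from 319 and 449 reads in lin-35, 965 and 796 in htz-1 and 833 and 661 in N2. The 3 genotypes did not overlap, with lin-35 lowest and htz-1 highest. In lin-35 the mean of deposited RPKM was 0.571 times that in N2. After scaling the log2 fold change was -0.98 (SE 0.17, 95% interval -1.37 to -0.58, limma adjusted p = 0.00655). The call passed in each of the 16 alternatives, with adjusted p between 0.00128 and 0.0464. The size depended on the library: the value was -0.73 without lin-35 replicate 1 and -1.23 without lin-35 replicate 2. In htz-1 the log2 fold change was 0.34 (SE 0.17, 95% interval -0.06 to 0.74, limma adjusted p = 0.170), which did not pass. Of the 10 regulators, daz-1 is the 1 that stands on the study's list of genes with a promoter site of all DREAM subunits in L3 larvae.

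The PUF repressors did not pass the test against N2 in either mutant. fbf-1 had 5.55 and 9.53 RPKM in lin-35 larvae and 11.6 and 12.5 RPKM in htz-1 larvae, against 8.34 and 9.15 RPKM in N2 larvae. fbf-2 had 5.45 and 7.999 RPKM in lin-35 larvae and 9.04 and 8.62 RPKM in htz-1 larvae, against 7.20 and 8.16 RPKM in N2 larvae. For both genes 1 lin-35 library was well below the N2 libraries. The other was within or above their range as deposited, and within it after scaling. The log2 fold changes in lin-35 were -0.41 for fbf-1 (SE 0.24, 95% interval -0.99 to 0.16) and -0.37 for fbf-2 (limma adjusted p = 0.278 and 0.239). In htz-1 they were 0.43 and 0.19 (limma adjusted p = 0.217 and 0.513). The 2 genes are close paralogs, so reads could have been split between them in counting and their separate values are uncertain.

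puf-8 also spread widely between the lin-35 libraries. It had 10.9 and 17.9 RPKM in lin-35 larvae and 21.7 and 22.6 RPKM in htz-1 larvae, against 14.7 and 18.1 RPKM in N2 larvae. The htz-1 libraries were above all others, and the lin-35 libraries overlapped with N2. Its log2 fold changes were -0.39 in lin-35 and 0.42 in htz-1 (limma adjusted p = 0.294 and 0.218).

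Of the GLD-1 and NOS-3 pair, neither gene passed against N2. gld-1 had 10.4 and 12.7 RPKM in lin-35 larvae and 13.9 and 19.7 RPKM in htz-1 larvae, against 13.3 and 11.9 RPKM in N2 larvae. nos-3 had 17.5 and 20.7 RPKM in lin-35 larvae and 20.1 and 21.05 RPKM in htz-1 larvae, against 22.01 and 20.8 RPKM in N2 larvae. As deposited, both lin-35 libraries of nos-3 were below both N2 libraries, replicate 1 clearly and replicate 2 only just, while gld-1 overlapped. On the scaled log2 values used for the tests neither gene overlapped. There gld-1 stood at 3.30 and 3.63 in lin-35 against 3.83 and 3.70 in N2. nos-3 stood at 4.03 and 4.32 in lin-35 against 4.54 and 4.48 in N2. The nos-3 log2 fold change in lin-35 was -0.34 (SE 0.13, 95% interval -0.64 to -0.04, limma adjusted p = 0.0994), and in htz-1 it was -0.06 (limma adjusted p = 0.729). For gld-1 the values were -0.30 in lin-35 and 0.37 in htz-1 (limma adjusted p = 0.337 and 0.197).

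Of the GLD-2 and GLD-3 pair, gld-2 was slightly higher in htz-1 larvae. gld-2 had 23.3 and 24.0 RPKM in lin-35 larvae and 23.8 and 25.4 RPKM in htz-1 larvae, against 19.1 and 19.4 RPKM in N2 larvae. All 4 mutant libraries were above both N2 libraries. In htz-1 the log2 fold change was 0.34 (SE 0.10, 95% interval 0.10 to 0.58, limma adjusted p = 0.0436), close to the threshold: it passed in 10 of 16 alternatives. Without htz-1 replicate 1 the value was 0.41 (limma adjusted p = 0.0523) and without replicate 2 it was 0.27 (limma adjusted p = 0.173). Leaving out N2 replicate 1 or 2 gave 0.31 and 0.35, which did not pass (limma adjusted p = 0.214 and 0.162). In lin-35 it was 0.11 (SE 0.10, 95% interval -0.13 to 0.36, limma adjusted p = 0.476). The scaling for composition lowers lin-35 values relative to N2: on the deposited RPKM the median log2 fold change of all genes tested was 0.15 in lin-35 and 0.00234 in htz-1.

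gld-3 was the lowest of the regulators. It had 3.41 and 5.55 RPKM in lin-35 larvae and 6.11 and 7.21 RPKM in htz-1 larvae, against 4.39 and 4.66 RPKM in N2 larvae. The lin-35 libraries lay on both sides of N2, and the htz-1 libraries lay above it. The log2 fold changes were -0.21 in lin-35 (SE 0.24, 95% interval -0.77 to 0.36) and 0.50 in htz-1 (SE 0.24, 95% interval -0.06 to 1.07), neither of which passed (limma adjusted p = 0.591 and 0.153). The sign in lin-35 rested on replicate 1, without which the value was 0.13.

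Between htz-1 and N2 larvae, 2 of the 9 regulators were higher (glp-1 and gld-2) and none was lower in limma, where 31.7% of all genes tested passed, 15.2% higher and 16.5% lower. An unadjusted p under 0.05 was found for these 2 genes and for no other regulator. The share of all genes at an unadjusted p was not taken. Limma-voom on whole reads also gave 2 higher and 0 lower, beside 31.6% of all genes called. The median log2 fold change of the regulators was 0.37, with 8 positive values and 1 negative, beside -0.00464 over all genes tested. As deposited, both htz-1 libraries were above both N2 libraries for 8 of the 9 regulators, and nos-3 overlapped. Of all genes tested, 35.8% lay above in this way and 35.3% below.

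**Figure D2:**
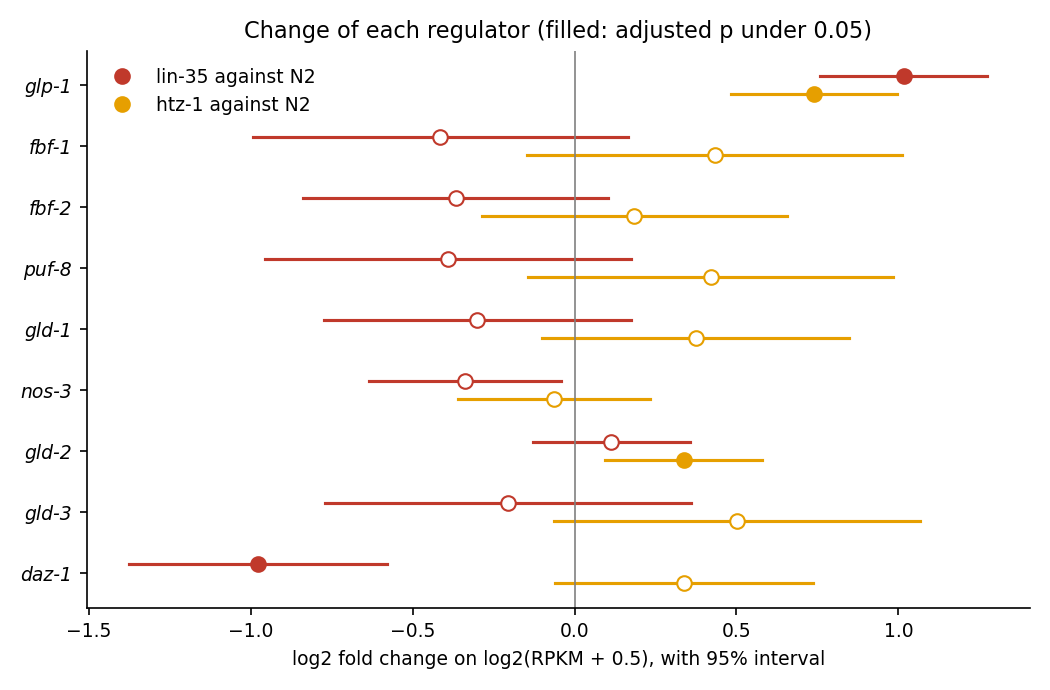
log2 fold change of each regulator in lin-35 and htz-1 larvae against N2, on log2(RPKM + 0.5) after scaling, with 95% intervals; filled points had an adjusted p under 0.05 over all genes tested. The filled points are glp-1 in both mutants (1.02 and 0.74), gld-2 in htz-1 (0.34) and daz-1 in lin-35 (-0.98).

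The mutants were also compared with each other. Of the 9 regulators, 4 were lower in lin-35 than in htz-1 larvae and none was higher, where 29.8% of all genes tested passed, 15.3% higher and 14.5% lower. The 4 were daz-1, with a log2 fold change of -1.31 (SE 0.17, limma adjusted p = 0.00211), fbf-1 (-0.85, adjusted p = 0.0394), puf-8 (-0.81, adjusted p = 0.0419) and gld-1 (-0.67, adjusted p = 0.0434). daz-1 passed in each of the 16 alternatives and the other 3 in 7 each. gld-3 (-0.71) and fbf-2 (-0.55) fell short of the threshold with limma adjusted p of 0.0635 and 0.0771. The median over the regulators was -0.67, beside 0.000194 over all genes tested, and it was -0.37 without lin-35 replicate 1 and -0.83 without lin-35 replicate 2. As deposited, both lin-35 libraries were below both htz-1 libraries for 6 of the 9 and above them for 1 (glp-1). Of all genes tested, 21.0% lay below in this way and 47.0% above. The comparisons share libraries, so the values of the regulators in them are not independent.

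Which lin-35 library was used mattered for most of these genes. All 9 regulators were lower in replicate 1 than in replicate 2 of lin-35, by a median of -0.51 on the log2 scale and by between -0.78 (fbf-1) and -0.08 (glp-1), while 50.7% of all genes tested were lower in replicate 1. fbf-1, puf-8 and gld-3 lay at the percentiles 2.07, 2.28 and 3.05 of this difference over all genes tested. The other germline lists moved with them: 9 of 10 germ cell markers (median -0.40), 17 of 20 meiotic prophase markers (median -0.41) and 5 of 5 oocyte markers were lower in lin-35 replicate 1. The direction was not particular to lin-35 for these lists: 10 of 10 germ cell markers (median -0.28) and 19 of 20 meiotic markers (median -0.18) were lower in replicate 1 of htz-1, and 9 of 10 (median -0.16) and 14 of 20 (median -0.10) in replicate 1 of N2. In htz-1 the regulators differed less between libraries, with 7 of 9 lower in replicate 1 and a median of -0.13, and gld-1 was furthest apart at -0.54. In N2 5 of 9 were lower in replicate 1 (median -0.04).

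With lin-35 replicate 2 left out, 6 of the 9 regulators passed against N2: glp-1 was higher, and daz-1, fbf-1 (-0.80), puf-8 (-0.76), fbf-2 (-0.65) and nos-3 (-0.48) were lower, where 19.6% of all genes tested passed in that fit. With replicate 1 left out, glp-1 (1.05) and daz-1 (-0.73) alone passed (18.1% of all genes tested), and fbf-1, puf-8 and fbf-2 stood at -0.03, -0.02 and -0.09. glp-1 and daz-1 were thus called with either lin-35 library, and the lower values of the PUF genes came from replicate 1.

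**Figure D3:**
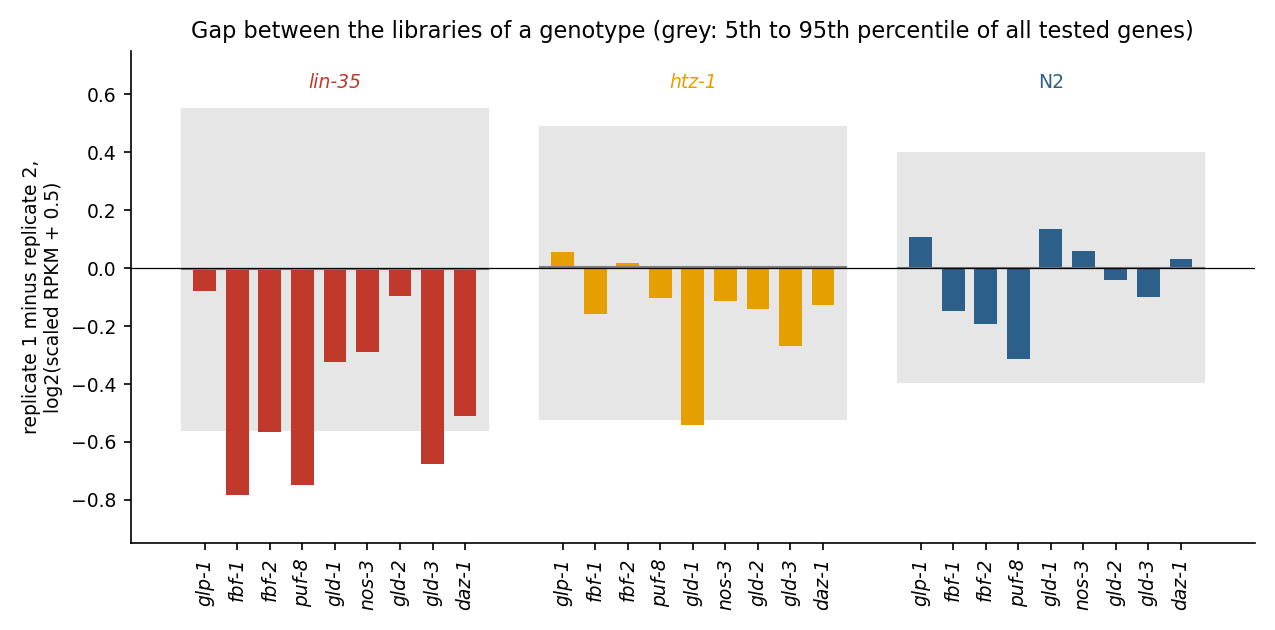
Difference between replicate 1 and replicate 2 of each genotype (log2 of scaled RPKM + 0.5) for the 9 regulators, drawn as bars over a grey band from the 5th to the 95th percentile of all genes tested. All 9 bars of lin-35 are below 0, from -0.08 for glp-1 to -0.78 for fbf-1, and those of N2 lie on both sides of it.

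The germline marker lists were set beside the regulators. In lin-35 larvae 3 of 10 germ cell markers rose and none fell: hrde-1 (2.86), pgl-1 (1.81) and glh-1 (0.71 on the log2 scale). The other 7 ranged from -0.45 to 0.40, and they summed to 173 and 220 RPKM in lin-35 larvae and 223 and 271 RPKM in htz-1 larvae, against 178 and 188 RPKM in N2 larvae. These 7 were set apart because they did not pass in lin-35, so a lin-35 sum near N2 follows from that choice. All 10 together summed highest in lin-35 larvae (831 and 904 RPKM). Of 20 meiotic prophase markers tested, 4 were higher in lin-35 (him-3, syp-1, coh-3 and htp-1) and the other 16 ranged from -0.52 to 0.47. The shares over all genes tested were 12.1% higher and 11.6% lower in lin-35. The 9 regulators summed to 107 and 133 RPKM in lin-35 larvae and 149 and 161 RPKM in htz-1 larvae, against 121 and 122 RPKM in N2 larvae. Their sum was lowest in lin-35 replicate 1 and highest in both htz-1 libraries.

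In htz-1 larvae 1 of 10 germ cell markers (cgh-1) and 8 of 20 meiotic prophase markers rose, and none of either list fell. The shares over all genes tested were 15.2% higher and 16.5% lower. The median of the meiotic markers was 0.65. The counts of both lists depended on single libraries. They fell when htz-1 replicate 2 or 1 of the N2 libraries was left out, and so did the share of all genes that passed. They rose, as did that share, when 1 of the lin-35 libraries was left out. Markers of somatic tissues moved as well. In lin-35 larvae 2 of 3 body wall muscle markers fell (unc-54, -0.73, and unc-15, -0.49), and of 4 intestine markers 2 fell (act-5, -0.99, and vha-6, -0.67) and 2 rose (elt-2, 0.65, and ges-1, 0.52). The muscle markers summed to 1187 and 1424 RPKM in lin-35 larvae and 1649 and 1723 RPKM in htz-1 larvae, against 1723 and 1853 RPKM in N2 larvae, and the intestine markers to 710.2 and 631 RPKM in lin-35 larvae and 814 and 717 RPKM in htz-1 larvae, against 1102 and 958 RPKM in N2 larvae. The hypodermis marker lin-26 rose in both mutants (0.67 in lin-35 and 1.23 in htz-1). In htz-1 act-5 fell (-0.63), and of 3 somatic gonad markers inx-8 rose, with 1.67 and 4.28 RPKM in htz-1 larvae, against 0.826 and 0.732 RPKM in N2 larvae (1.34, limma adjusted p = 0.0483). No muscle marker passed in htz-1. Of 5 neuron markers 1 rose and 1 fell in lin-35, and 1 rose and 2 fell in htz-1. The part of a change in germ cell number or in tissue proportions in the values of the regulators was not tested.

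The genes around GLP-1 were followed with a list of 16 Notch pathway genes, all tested. In lin-35 larvae 1 rose and none fell, where 12.1% of all genes tested were higher and 11.6% lower. The list median was -0.05, and at an unadjusted p under 0.05 there were 1 higher and 2 lower. The share of all genes at an unadjusted p was not taken for this or the other lists. In htz-1 larvae 5 rose and none fell, with a median of 0.19 (6 higher and 0 lower unadjusted, and likewise by limma-voom). Over all genes tested 15.2% were higher and 16.5% lower in limma, and limma-voom called 31.6%. In the direct comparison 3 of the 16 were lower in lin-35 than in htz-1, where 14.5% of all genes tested were lower. epn-1, an epsin that acts in endocytosis, was the 1 that rose in both: it had 75.5 and 87.9 RPKM in lin-35 larvae and 77.2 and 77.2 RPKM in htz-1 larvae, against 43.9 and 47.6 RPKM in N2 larvae (log2 fold changes 0.65 and 0.74, limma adjusted p = 0.00693 and 0.00408). The other 4 in htz-1 were lin-12, the second Notch receptor (0.64), apx-1, a ligand (0.63), lst-1, a target of GLP-1 signalling in stem cells (0.59), and sup-17, a protease that cleaves the receptors (0.48), whose call was not rerun with libraries left out.

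The niche ligand and the second stem cell target did not pass in either mutant. lag-2, the ligand made by the niche cell, had 1.44 and 1.69 RPKM in lin-35 larvae and 2.37 and 2.31 RPKM in htz-1 larvae, against 2.21 and 2.14 RPKM in N2 larvae. sygl-1, which acts beside lst-1 downstream of GLP-1, had 12.5 and 19.8 RPKM in lin-35 larvae and 21.5 and 19.9 RPKM in htz-1 larvae, against 18.7 and 19.2 RPKM in N2 larvae. lst-1 had 8.47 and 8.77 RPKM in lin-35 larvae and 13.2 and 11.96 RPKM in htz-1 larvae, against 8.04 and 8.29 RPKM in N2 larvae. In lin-35 larvae the log2 fold changes of lst-1 and sygl-1 were -0.10 and -0.43 (limma adjusted p = 0.614 and 0.193), and that of lag-2 was -0.51 (limma adjusted p = 0.112). For sygl-1 as deposited, lin-35 replicate 1 lay below both N2 libraries and replicate 2 above them. After the scaling used for the tests, replicate 2 also lay below both. Whether GLP-1 signalling changed was not tested.

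Among 17 tested genes for other cytoplasmic RNA regulators and partners of the GLD, FBF and NOS proteins, 3 were higher and 3 lower in lin-35, and 4 were higher and 3 lower in htz-1. The shares over all genes tested were 12.1% higher and 11.6% lower in lin-35, and 15.2% higher and 16.5% lower in htz-1. cpb-1, a CPEB protein that binds FBF, had 12.5 and 15.2 RPKM in lin-35 larvae and 4.98 and 8.90 RPKM in htz-1 larvae, against 1.03 and 0.842 RPKM in N2 larvae (log2 fold changes 3.17 and 2.33, limma adjusted p = 0.000413 and 0.00173). rnp-8, an RNA-binding partner of GLD-2, had 19.6 and 19.7 RPKM in lin-35 larvae and 7.94 and 9.43 RPKM in htz-1 larvae, against 5.90 and 6.16 RPKM in N2 larvae (1.45 and 0.48, limma adjusted p = 0.000527 and 0.0345). Both rose in both mutants. For gld-2 itself the direct difference between lin-35 and htz-1 was -0.22 (limma adjusted p = 0.141), which did not pass.

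lin-41, a TRIM-NHL protein gene that acts in oocytes and in the timing of larval development, fell in both mutants. It had 36.03 and 35.3 RPKM in lin-35 larvae and 29.3 and 17.3 RPKM in htz-1 larvae, against 62.9 and 61.1 RPKM in N2 larvae (log2 fold changes -0.97 and -1.45, limma adjusted p = 0.0145 and 0.00300). prom-1, a gene of early meiosis, was higher in htz-1 (1.18, limma adjusted p = 0.0241) and stood at 0.47 in lin-35 (limma adjusted p = 0.309).

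Of 6 other PUF genes tested, none passed in lin-35 by limma or limma-voom, beside 23.8% and 23.3% of all genes. At an unadjusted p under 0.05, 1 was lower in lin-35. In htz-1 1 was lower, beside 16.5% of all genes tested. This was puf-9, with 20.4 and 22.4 RPKM in htz-1 larvae, against 30.6 and 29.1 RPKM in N2 larvae (-0.48, limma adjusted p = 0.0139).

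The sex determination genes decide between sperm and oocyte fate, and several are controlled by these RNA regulators. In lin-35 none of 9 tested passed by limma or limma-voom, beside 23.8% and 23.3% of all genes. At an unadjusted p under 0.05, 1 was lower in lin-35. In htz-1 larvae 1 was higher, fog-3, a gene for sperm fate (0.76, limma adjusted p = 0.0469), and 3 were lower: tra-1, fem-2 (-0.57) and fem-1 (-0.31). Over all genes tested 15.2% were higher and 16.5% lower. tra-1, the last transcription factor of the sex determination pathway, had 2.18 and 2.42 RPKM in htz-1 larvae and 14.7 and 13.4 RPKM in lin-35 larvae, against 13.7 and 12.8 RPKM in N2 larvae. Its log2 fold change in htz-1 was -2.31 (SE 0.13, limma adjusted p = 0.000260), and the direct difference between lin-35 and htz-1 was 2.22 (limma adjusted p = 0.000114).

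**Figure D4:**
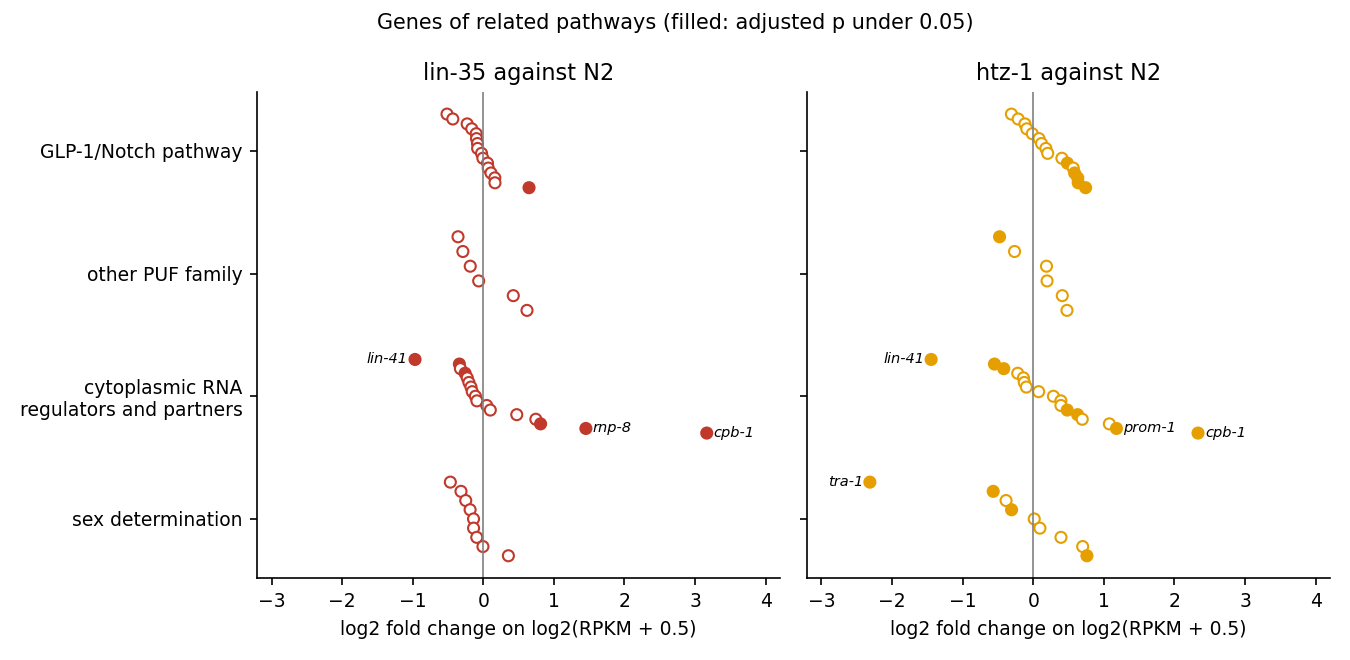
log2 fold change of each tested gene of the 4 related lists in lin-35 (left) and htz-1 (right) larvae against N2, on log2(RPKM + 0.5) after scaling; filled points had an adjusted p under 0.05, and filled points beyond 0.9 in size are named. cpb-1 is furthest to the right in both panels (3.17 and 2.33), and tra-1 is furthest to the left in htz-1 (-2.31).

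Some of these calls were lost when a single library was left out. Leaving out a library of a compared genotype also lowered the share of all genes that passed, so a lost call need not mean a changed effect. The log2 fold changes of the lost calls kept their sign. With each library left out, lin-41 in lin-35 ranged from -0.99 to -0.96. In htz-1, lst-1 ranged from 0.55 to 0.63 and fog-3 from 0.53 to 1.00. cpb-1 and rnp-8 in lin-35, and cpb-1, lin-41, tra-1 and epn-1 in htz-1, passed with each library left out. epn-1 in lin-35 was lost without N2 replicate 1 (limma adjusted p = 0.0600), and lin-41 in lin-35 without any 1 of the lin-35 or N2 libraries (limma adjusted p up to 0.0730). In htz-1, the calls of lin-12, apx-1, lst-1, puf-9, rnp-8, prom-1, fog-3, fem-1 and fem-2 were lost without either N2 library, with the highest limma adjusted p from 0.0857 for lst-1 to 0.240 for fem-1, and apart from lst-1 also without 1 or both htz-1 libraries.

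Similarity of pattern over the 6 libraries was the root mean square difference of log2(scaled RPKM + 0.5), each gene centred on its own mean. By this measure the nearest genes were found for the 3 regulators that passed in a comparison with N2. For glp-1 they were pri-2, a DNA primase subunit (0.062), Y75B8A.32 (0.065) and klp-19, a kinesin of mitosis and meiosis (0.066). pri-2 had 15.5 and 14.1 RPKM in lin-35 larvae and 11.7 and 11.04 RPKM in htz-1 larvae, against 6.53 and 6.36 RPKM in N2 larvae. For gld-2 they were R10H10.7 (0.012), the tubulin gene tba-2 (0.029) and dyf-6 (0.031). For daz-1, whose nearest genes were less close, they were Y53G8B.2 (0.10), ppw-2, an Argonaute gene (0.13), and ctl-1, a catalase gene (0.14).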

How the data were processed

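RNA-seq values of lin-35, htz-1 and N2 L3 larvae were used, with 2 libraries each. The authors made unstranded TruSeq libraries, aligned the reads to ce10 with BWA, counted them per gene with HTSeq on a lifted WormBase exon model and deposited RPKM of each library. Reads of overlapping genes on opposite strands cannot be told apart in such libraries. The table also holds the authors' mean RPKM, log2 fold changes and p-values from DESeq2, which were not used. Genes were matched by sequence name, and 15397 names matched the RefSeq gene table.

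The RPKM were divided by median-of-ratios size factors (0.949 to 1.11), 0.5 was added and log2 taken. The 9679 genes whose RPKM averaged 1 or more were fitted in limma 3.58.1 (R 4.3.3) with a variance trend and the 3 genotypes together, which left 3 residual degrees of freedom beside 4.01 from the prior. Tests were two-sided, and Benjamini-Hochberg adjusted p-values under 0.05 were called. On simulated data for lin-35 against N2 (9663 genes run), the fit found 95 of 100 genes with a change of 1 log2 unit. It also called 7 genes left unchanged, 3.47% of its calls. For htz-1 against N2 it found 99 of 100 and called 16 unchanged genes (7.44% of its calls). For lin-35 against htz-1 it found 98 of 100 and called 8 (3.88%). The simulation changed 100 genes by 1 and 100 by 2 log2 units, far fewer than passed in the data, with 1 spread setting for all genes. Recovery of changes under 1 log2 unit, the size of most regulator changes here, was not tested. Nor was recovery for genes that spread between lin-35 libraries as widely as fbf-1, puf-8 and gld-3. RPKM steps gave whole reads for 100% of values within 0.002 reads, and limma-voom on these called 1252 genes higher and 1003 lower in lin-35 than in N2, and for htz-1 1683 higher and 1374 lower. Alternatives were other scalings, pseudocounts (0.1 and 1), no filter, a replicate block, 2 genotypes only, no trend and each library left out.

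The regulators and lists were chosen with earlier results of these data known. Beside the regulators, the text names by rule up to 4 genes past the test in each pathway list with the largest change, and the 3 genes nearest to each called regulator. sup-17, lag-2, sygl-1 and the marker genes given by name were picked with their values in view.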

Additional observations from a re-analysis of the deposited data

Results flagged for a closer look

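The effects of the mutants differed by a direct test for 4 regulators, each lower in lin-35 than in htz-1 larvae, and leaving out a library changed 3 of these calls. daz-1 differed by -1.31 on the log2 scale and by between -1.56 and -1.06 with each library left out. fbf-1 differed by -0.85, and by -0.46 without lin-35 replicate 1 (limma adjusted p = 0.0944) and -1.23 without lin-35 replicate 2 (limma adjusted p = 0.00517). puf-8 differed by -0.81, and by -0.44 and -1.18 in these fits (limma adjusted p = 0.118 and 0.00653). gld-1 differed by -0.67, and by -0.95 without htz-1 replicate 1 (limma adjusted p = 0.0169) and -0.41 without htz-1 replicate 2 (limma adjusted p = 0.179). Without htz-1 replicate 1 and without htz-1 replicate 2, fbf-1 stood at -0.93 and -0.78 (limma adjusted p = 0.0817 and 0.155) and puf-8 at -0.87 and -0.77 (limma adjusted p = 0.0927 and 0.152). With 1 of the 6 libraries left out, fbf-1 and puf-8 passed only without lin-35 replicate 2, and gld-1 only without htz-1 replicate 1.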

How the results depend on the processing

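With 2 libraries per genotype, leaving out 1 leaves a lone library that is assumed to vary like the others. Over these fits the median log2 fold change of the regulators ranged from -0.54 to -0.03 for lin-35 against N2. It ranged from 0.28 to 0.48 for htz-1 against N2 and from -0.85 to -0.37 for lin-35 against htz-1. For htz-1 against N2 the 2 calls (31.7% of all genes) became 1 with no filter (19.5%), 1 with no variance trend (27.8%) and 4 with only the 2 genotypes compared (34.9%). For lin-35 against htz-1 the 4 calls (29.8%) became 2 on RPKM as deposited (1 higher, glp-1, and 1 lower, 32.0%), and 1 with no filter (18.5%), with only the 2 genotypes compared (21.9%) and with no variance trend (24.4%). More were called, all lower, under quantile normalization (6, beside 28.9%) and in limma-voom (5, beside 30.0%). With the replicate number as a block the counts were 2, 2 and 6 of 9, beside 26.5%, 35.03% and 33.2% of all genes. The block with only the 2 genotypes compared, chosen after seeing the data, gave 3, 6 and 5, beside 34.5%, 39.6% and 24.3%. Same-numbered libraries correlated at 0.318 (lin-35 with N2), 0.0992 (htz-1 with N2) and 0.0162 (lin-35 with htz-1) in their deviations from the group means, and the numbers were not taken as pairs.

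Scaling moved the split over all genes: on RPKM as deposited 75.1% of the calls in lin-35 against N2 were higher, against 51.1% after scaling, and 73.7% against 51.4% in lin-35 against htz-1. Of the log2 fold changes of the named genes, 885 kept direction and call, 153 gained or lost a call, and 18 turned sign, none of them called. In lin-35 against N2, those on RPKM as deposited were apx-1 (0.14), lst-1 (0.0740), puf-9 (0.11), tra-1 (0.0814), fog-3 (0.0335) and fem-2 (0.0396), beside lin-12 under quantile normalization (-0.0548) and apx-1 in limma-voom (0.0371). With each library left out, gld-3 ranged from -0.54 to 0.13, apx-1 from -0.0895 to 0.0679, fog-3 from -0.44 to 0.16 and lin-12 from -0.0320 to 0.25. In lin-35 against htz-1, epn-1 (0.0769) and fem-1 (0.16) turned on RPKM as deposited, and ranged from -0.23 to 0.0429 and from -0.0426 to 0.0268 with a library left out. The cause was not tested.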
